A study of Mus musculus with 14 samples.

Results

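The voltage-gated sodium and calcium channel subunits were followed in olfactory epithelia of mouse pups in separate experiments. In the first, a potassium channel that the study used to suppress firing was expressed in the olfactory sensory neurons (OSNs). In the other, pups were exposed to an odor. Firing is not part of these data. Members were taken by gene symbol: every Scn gene ending in a or b except Scn4b, and every Cacna1, Cacna2d, Cacnb and Cacng gene that both deposited tables list. This gave 39 genes of 51211 symbols, namely 10 sodium channel alpha subunits, 3 sodium beta subunits, 4 L-type, 3 P/Q-, N- or R-type and 3 T-type calcium alpha1 subunits, 4 alpha2delta, 4 calcium beta and 8 gamma subunits. Whole olfactory epithelia were taken from 14 individual C57BL/6 mice at P5, by the sample records. In the Kir2.1 experiment, 3 mice carried the OMP-IRES-tTA allele together with the tetO-Kir2.1-IRES-tauLacZ transgene, and the 3 controls carried OMP-IRES-tTA alone, as heterozygotes. The tTA allele sits at Omp, a gene of mature OSNs, so that the inwardly rectifying potassium channel Kir2.1 is driven in those neurons and not in the epithelium at large. The study states that vomeronasal neurons are silenced by it as well. The records name the first group Kir2.1-off, a term the study uses for adults fed doxycycline, although these pups were taken at P5. In the PEA experiment, 4 wild-type pups were exposed to 2-phenylethylamine (PEA), a volatile amine odor, from P0 to P5, and 4 were not exposed. The records give C57BL/6 for these pups also, whereas the study's methods name CD-1 pups.

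Sodium channel alpha subunits form the pore that carries the rising phase of the action potential, and their beta subunits set gating and surface expression. Calcium alpha1 subunits form the pores of L-type, P/Q-, N- and R-type and low-threshold T-type calcium channels, which are helped to the membrane by alpha2delta and cytoplasmic beta subunits. Several gamma subunits are better known as partners of AMPA-type glutamate receptors than of calcium channels. OSNs fire through the sodium channel Nav1.7, encoded by Scn9a, whose loss abolishes the sense of smell, and T-type channels lower their firing threshold.

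The values are gene-level normalized counts made by the authors. Orders and shares of the subunits were taken after division by the length of the longest annotated transcript (level per kb). The plots of values in each mouse and the sums over marker lists are not divided by length. Closely related pores share stretches of sequence, which bears on how reads are divided between them. Of all 40-base words in the longest transcript, 10.3% in Scn3a, 9.90% in Scn2a, 7.24% in Scn1a and 6.30% in Scn9a recurred in a transcript of another gene, and these 4 genes lie together on chromosome 2. Levels of these 4 genes are therefore less certain than those of Scn8a (0.219% of words shared) or Scn3b (none). For Scn2a the other genes included some outside the Scn family, and the PEA reads were longer than 40 bases.

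Promoter windows of 250 bases upstream of an annotated start were found for 29 of the 39 members in the RefSeq table (GRCm38.p6). Cacna1a, Cacna1g, Cacna1h, Cacna2d4, Cacng1, Cacng4, Scn3a and Scn3b were among those not matched. Of the windows, 3 are printed, on the gene's own strand and with CG pairs in capitals, for the most abundant sodium pore (Scn9a), the sodium pore with the lowest difference in the Kir2.1 experiment (Scn8a) and the calcium gamma subunit with the lowest difference there (Cacng5).
Scn9a (chr2:66634963-66635212, minus strand): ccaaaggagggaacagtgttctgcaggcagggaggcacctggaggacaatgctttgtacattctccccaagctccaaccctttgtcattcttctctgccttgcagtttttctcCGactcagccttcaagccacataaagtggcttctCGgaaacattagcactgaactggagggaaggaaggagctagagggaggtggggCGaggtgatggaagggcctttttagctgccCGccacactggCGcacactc
Scn8a (chr15:100870395-100870644, plus strand): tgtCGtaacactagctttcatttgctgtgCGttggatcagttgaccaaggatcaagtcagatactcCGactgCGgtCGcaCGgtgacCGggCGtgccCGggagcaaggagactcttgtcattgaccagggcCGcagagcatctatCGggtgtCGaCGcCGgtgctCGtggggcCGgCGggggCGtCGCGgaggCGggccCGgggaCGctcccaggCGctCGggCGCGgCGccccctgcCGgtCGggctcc
Cacng5 (chr11:107915056-107915305, minus strand): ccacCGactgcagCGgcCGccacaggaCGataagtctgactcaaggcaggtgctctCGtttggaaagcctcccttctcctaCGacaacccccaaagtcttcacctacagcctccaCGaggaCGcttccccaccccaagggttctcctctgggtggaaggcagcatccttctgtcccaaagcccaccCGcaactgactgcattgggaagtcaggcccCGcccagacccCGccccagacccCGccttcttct
The printed windows held 5, 30 and 12 CG pairs, against a median of 6 over 32851 windows of the same length. Scn8a and Cacng5 each had another window, not printed, with 9 and 2 CG pairs. In all, 5 short motifs were searched on both strands. CCCNNGGGA, the core of the Olf/Ebf site found at many OSN genes, occurred in windows of 4 members (Cacna1i, Cacna2d3, Cacnb4 and Cacng3) and in 6.45% of all genes. TATAAA occurred in windows of Cacna1d and Scn2a and in 14.3% of all genes. The letters TGACGTCA and TGACGCAA, 2 forms of the cAMP response element, and TAATTA were in no member's window and in 1.77%, 0.507% and 5.65% of all genes. None of the 7 matched members with an unadjusted p under 0.05 in the Kir2.1 experiment held any of the 5 motifs in these windows.

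Kcnj2, the gene for Kir2.1, lay between 986 and 1274 in the 3 controls, whereas the 3 Kir2.1 mice had 17926 to 24193. The 13 markers of mature OSNs, Omp among them, all had lower values with Kir2.1 and an unadjusted p under 0.05 (limma; 2 passed adjustment), with summed levels of 152445 to 167956 in the controls and 112025 to 126088 in the Kir2.1 mice. Their mean log2 level was lower by 0.44 (exact two-sided permutation p = 0.1, the smallest that 3 against 3 allows, and 0.55 after adjustment over 11 lists). Markers of smooth muscle and pericytes went the other way, by 0.55 with the same p, with sums of 26804 to 30407 and 32161 to 33394. The 9 other lists (immature OSNs, basal progenitors, sustentacular cells, skeletal muscle, glia, vomeronasal neurons, nociceptors, olfactory bulb neurons and macrophages) differed by -0.49 to 0.37, with exact p values of 0.2 to 0.9. In the PEA experiment basal progenitor markers were higher by 0.17 and smooth muscle and pericyte markers lower by 0.34 (exact p = 0.0286 each, the smallest possible, and 0.157 after adjustment), and the 9 other lists differed by -0.23 to 0.20. Skeletal muscle, where Cacna1s, Cacng1 and Scn4a are the main forms, was scarcely represented, with summed marker levels of 376 to 454 and 45.8 to 75.6, and Myog was under 1 in every mouse of the PEA experiment. Vomeronasal receptors set 1 control apart in the Kir2.1 experiment, with a mean log2 level of 6.06 against 2.42 to 2.51 in the other mice. In the PEA experiment their mean log2 level was 5.76, 4.69, 3.92 and 1.44 in the controls and 5.32, 1.71, 1.45 and 1.43 in the exposed mice, so that 3 controls but only 1 exposed mouse were above 3. The part of these cell types in the results on channels was not tested beyond the covariate fits given with the limits.

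Of the 39 subunits, 30 had a mean of at least 10 in the Kir2.1 experiment and were tested. None passed an adjusted p of 0.05 (limma with Benjamini-Hochberg adjustment over 19807 genes, of which 0.353% passed). At an unadjusted p under 0.05 there were 11 members, 10 of them with lower values (33.3% of those tested, against 6.2% of all genes) and 1 higher (3.33%, against 4.93%). Relative to the mean of the mature OSN markers the same fit gave 1 lower (3.33%, against 0.788% of all genes) and 11 higher (36.7%, against 60.7%). That scaling moved the median of all genes from 0.01 to 0.45. The 10 lower members without that scaling included the sodium pores Scn3a, Scn8a and Scn9a, the sodium beta subunit Scn3b and the N-type pore Cacna1b. They also included the calcium beta subunits Cacnb2 and Cacnb3, and the gamma subunits Cacng5 and Cacng7. Means were below the control in 22 of the 30 (73.3%, against 48.8% of all genes) and the median log2 difference was -0.21, against 0.01 over all genes. Relative to the OSN markers the member median was 0.23, against 0.45 over all genes. Differences of single members relative to these markers, given below, are to be read beside that 0.45. In 11 members every Kir2.1 mouse was below every control (36.7%, against 9.04%), but 2 of the 11, Cacna1f and Cacng2, reached the minimum only through the controls, and in 1 every Kir2.1 mouse was above (3.33%, against 7.26%). Leaving out control 3 or Kir2.1 mouse 1 brought the 10 lower members to 6, and leaving out the control with high vomeronasal receptors brought them to 9. Scn4b, which the symbol rule leaves out, had levels of 5643, 6582 and 5570.0 in the controls and 3174, 2891 and 2776 in the Kir2.1 mice, a difference of -1.01 (log2) with an SE of 0.09 and an adjusted p of 0.00958, which was 0.0630 without control 1 and at most 0.0497 without any other mouse. In whole tissue, fewer neurons of a kind and less RNA in each neuron cannot be told apart.

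**Figure D1:**
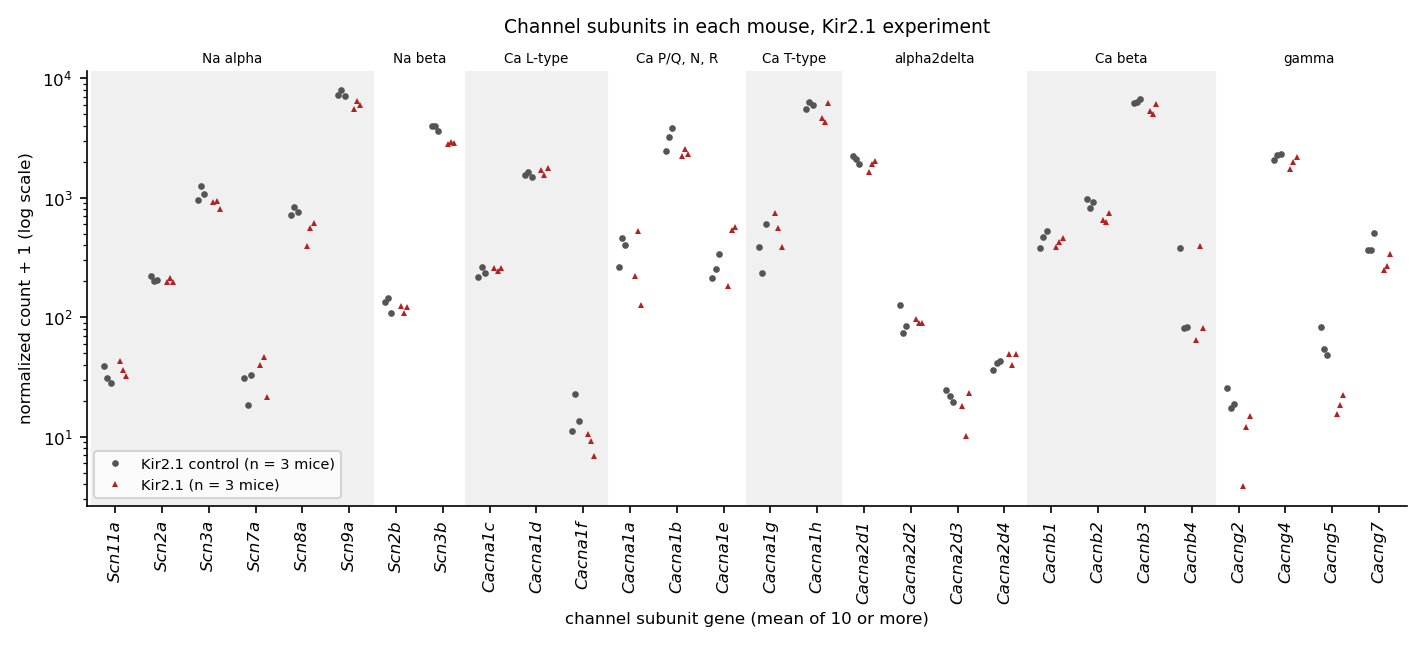
Normalized counts plus 1, on a log scale, of 28 of the 30 tested subunit genes in each mouse of the Kir2.1 experiment (grey circles, 3 controls; red triangles, 3 Kir2.1 mice), grouped by class. Scn9a, Cacna1h and Cacnb3 form the top with values from 4277 to 7899, which are not divided by transcript length. The red points of Scn3b lie wholly below the grey, and Cacnb4 is split within both groups.

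Scn9a was the most abundant sodium pore. Its level was 7252, 7899 and 7049 in the controls and 5555, 6428 and 5997 in the Kir2.1 mice. Every Kir2.1 mouse was below every control, with a log2 difference of -0.30, an SE of 0.08 and an adjusted p of 0.222 (limma, as for all members below). Relative to the OSN markers the sign turned, to 0.14, where the median of all genes was 0.45. Scn8a encodes Nav1.6, the channel of nodes and axon initial segments. It was at 711, 838 and 754 in the controls and 394, 551 and 611 in the Kir2.1 mice, with a log2 difference of -0.59, an SE of 0.17 and an adjusted p of 0.263. This was the lowest difference among the sodium pores, without overlap, and it shrank to -0.14 relative to the OSN markers. Scn3a encodes Nav1.3, typical of embryonic and newborn neurons, and was at 961, 1237 and 1071 in the controls and 909, 935 and 802 in the Kir2.1 mice. Its groups did not overlap but came close, with a log2 difference of -0.30, an SE of 0.12 and an adjusted p of 0.401, and 0.14 relative to the OSN markers. The unadjusted p stayed under 0.05 in only 2 of the 6 fits that left out 1 mouse. Scn2a, the pore Nav1.2 of unmyelinated axons, was at 218, 199.97 and 203 in the controls and 195, 209 and 197 in the Kir2.1 mice. Those groups overlapped, and the log2 difference was -0.04 with a 95% interval of -0.31 to 0.23. Relative to the OSN markers it was 0.40 (limma, adjusted p = 0.0423). That is below the median of all genes under this scaling (0.45), where 54.2% of all genes passed. A further 5 sodium pores were scarce. Scn11a and Scn7a, the latter a sodium sensor rather than a voltage-gated channel, passed the minimum with log2 differences of 0.19 and 0.37 and adjusted p values of 0.860 and 0.817. Scn1a, Scn4a and Scn10a did not pass it, and no value of the 5 exceeded 45.4.

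The make-up of the sodium pores was close in both groups. Summed per kb, the 10 alpha subunits came to 1438 ± 121 for the controls against 1138 ± 49.5 for the Kir2.1 mice (mean ± SD, n = 3 each), without overlap (1360 to 1577 against 1099 to 1194). Scn9a made up 52.4% ± 1.36 of this sum in the controls and 53.5% ± 1.82 in the Kir2.1 mice. The share of Scn8a was 4.67% ± 0.165 and 3.98% ± 0.814, with ranges that overlapped. Only Scn2a and Scn11a among the 10 had shares whose ranges stood apart, at 1.42 to 1.77% and 0.320 to 0.467% in the controls and 1.96 to 1.99% and 0.471 to 0.651% in the Kir2.1 mice.

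Scn3b, which encodes the beta3 subunit, had the smallest adjusted p of the members (0.0720). Its level was 3988, 3941 and 3585 in the controls and 2794, 2914 and 2837 in the Kir2.1 mice. The groups were well apart, with a log2 difference of -0.43, an SE of 0.07 and an adjusted p of 0.072, and fits without 1 mouse gave -0.48 to -0.40. Relative to the OSN markers the difference was 0.01, where the median of all genes was 0.45. Scn2b, the beta2 subunit, lay between 106 and 143 in every mouse, with a log2 difference of -0.11 and an adjusted p of 0.877.

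Among the calcium pores the T-type channel Cacna1h (Cav3.2) was foremost. It measured 5529, 6314 and 6004 in the controls and 4623, 4277 and 6192 in the Kir2.1 mice. The third Kir2.1 mouse lay among the controls, so that the groups overlapped, with a log2 difference of -0.26, an SE of 0.14 and an adjusted p of 0.574. Without that mouse the difference was -0.42 with an unadjusted p of 0.0026. That was the only 1 of 6 fits without a mouse under 0.05, with p up to 0.319. Relative to the OSN markers the difference was 0.18. Cacna1b, the N-type pore Cav2.2 that feeds transmitter release, was at 2447, 3185 and 3787 in the controls and 2211, 2542 and 2317 in the Kir2.1 mice. There, 1 control was below the highest Kir2.1 mouse, and the log2 difference was -0.39 with an SE of 0.15 (unadjusted p = 0.0376, adjusted p = 0.408) and 0.05 relative to the OSN markers. That p ranged from 0.00238 without control 1 to 0.109 without control 3, and was under 0.05 in 2 of 6 such fits. The L-type pore Cacna1d was steady at 1491 to 1769, with a log2 difference of 0.09 (95% interval -0.11 to 0.28). Cacna1c, the L-type pore of muscle and neurons, was at 216, 259.6 and 233 in the controls and 256, 243 and 257 in the Kir2.1 mice. Here too the groups overlapped, with a log2 difference of 0.10, an SE of 0.12 and an adjusted p of 0.848. Cacna1f, the L-type pore of the retina, was near the limit of measurement at 10.2, 21.9 and 12.5 in the controls and 9.58, 8.17 and 5.90 in the Kir2.1 mice. Its groups did not overlap, with a log2 difference of -0.79, an SE of 0.44 and an adjusted p of 0.591, and it passed the minimum only through the controls. Cacna1a and Cacna1e spread widely within groups, from 126 to 526 and from 182 to 570 in the Kir2.1 mice, and Cacna1g from 231 to 595 in the controls. Their log2 differences of -0.57, 0.55 and 0.52 had adjusted p values of 0.755, 0.731 and 0.687. Cacna1s and Cacna1i did not pass the minimum.

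Auxiliary calcium channel subunits were led by Cacnb3, the beta3 subunit and, per kb, the most abundant of all members at 2331. Its values were 6124, 6307 and 6684 in the controls and 5287, 4989 and 6083 in the Kir2.1 mice. All Kir2.1 mice were below all controls by a narrow margin, with a log2 difference of -0.23, an SE of 0.09 and an adjusted p of 0.403, and 0.21 relative to the OSN markers. Its unadjusted p of 0.0358 was under 0.05 in only 1 of 6 fits without a mouse, that without Kir2.1 mouse 3. Cacnb2 was at 968, 812 and 913 in the controls and 645, 623 and 737 in the Kir2.1 mice. The groups were apart in this beta subunit too, with a log2 difference of -0.43, an SE of 0.11 and an adjusted p of 0.205, and 0.01 relative to the OSN markers. The alpha2delta subunit Cacna2d1, the receptor of gabapentin, was at 2232, 2108 and 1889.9 in the controls and 1622, 1919.7 and 2005 in the Kir2.1 mice. Those groups overlapped, with a log2 difference of -0.17, an SE of 0.11 and an adjusted p of 0.642, and 0.27 relative to the OSN markers. Cacnb1 and the 3 other alpha2delta subunits had log2 differences from -0.43 to 0.20 and adjusted p values of 0.776 or more. Cacnb4, singled out after its values were seen, was at 378, 79.5 and 81.4 in the controls and 63.3, 392 and 80.6 in the Kir2.1 mice. A single mouse in each group stood far above the rest. Of the words of Cacnb4, 16.9% recur on the opposite strand of other transcripts, which unstranded reads do not separate. Whether that bears on the split was not tested.

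The gamma subunits held the lowest differences. Cacng5, a partner of AMPA receptors, was at 82.1, 53.5 and 46.8 in the controls and 14.5, 17.4 and 21.3 in the Kir2.1 mice. The groups were far apart, with a log2 difference of -1.69, an SE of 0.31 and an adjusted p of 0.0978, and it was still lower by 1.25 relative to the OSN markers. Fits without 1 mouse gave -1.86 to -1.46. Cacng7, of the same AMPA receptor subgroup, was at 364, 364 and 500.3 in the controls and 247, 266 and 338 in the Kir2.1 mice. Every Kir2.1 mouse was below every control, with a log2 difference of -0.52, an SE of 0.18 and an adjusted p of 0.335, and -0.08 relative to the OSN markers. The unadjusted p of Cacng7 was under 0.05 in 3 of 6 fits without a mouse. Cacng2, or stargazin, was at 24.4, 16.2 and 17.7 in the controls and 2.87, 11.1 and 13.9 in the Kir2.1 mice. It did not overlap between groups but passed the minimum only through the controls, with a log2 difference of -1.18, an SE of 0.57 and an adjusted p of 0.52. Cacng4, the most abundant gamma subunit, was at 2054, 2291 and 2324 in the controls and 1736, 1975 and 2173 in the Kir2.1 mice. The groups overlapped, with a log2 difference of -0.18, an SE of 0.10 and an adjusted p of 0.581. Relative to the OSN markers the difference was 0.26 (limma, adjusted p = 0.0299). That too is below the median of all genes under this scaling (0.45), where 54.2% of all genes passed. Its share of the 8 gamma subunits per kb was 75.1% ± 2.32 in the controls and 79.9% ± 0.983 in the Kir2.1 mice. Cacng3 was at 0, 0 and 0.698 in the controls and 3.36, 9.07 and 0.725 in the Kir2.1 mice, under the minimum and not tested. Cacng1 and Cacng8 did not pass the minimum, and Cacng6 was listed at 0 in every mouse of both experiments.

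**Figure D2:**
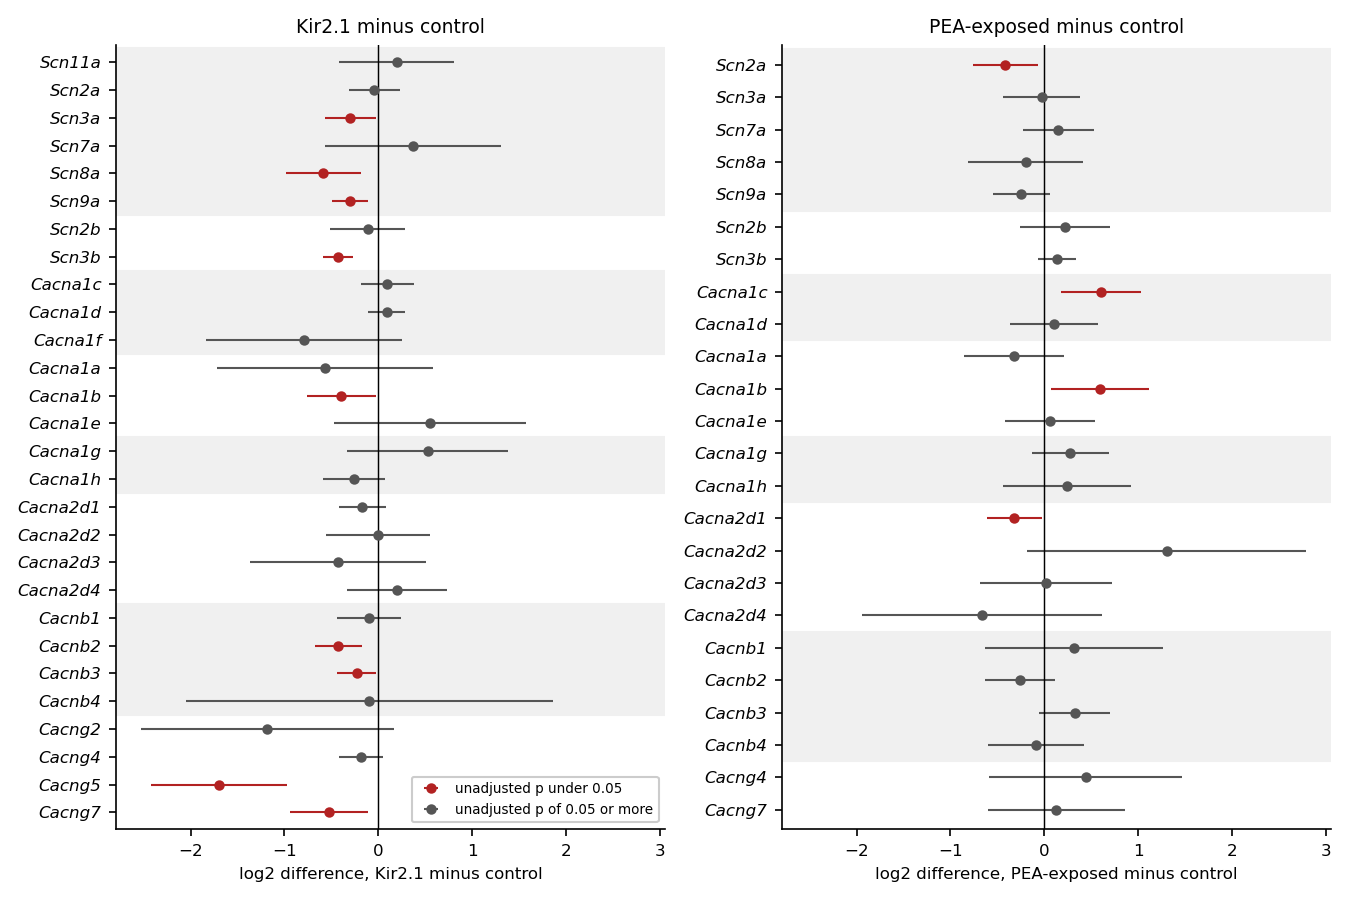
Log2 difference between the group means with its 95% interval (limma) for each tested subunit drawn, 28 in the Kir2.1 experiment on the left and 24 in the PEA experiment on the right, with red marking an unadjusted p under 0.05. On the left 9 red points lie below 0, from -0.23 for Cacnb3 to -1.69 for Cacng5. Of these, 6 change sign relative to the mature OSN markers, a scaling that moves the median of all genes from 0.01 to 0.45. On the right 2 lie below and 2 above.

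In the PEA experiment 26 members had a mean of at least 10, and 13 did not. Again none passed an adjusted p of 0.05 (limma, 17322 genes, of which 0.179% passed). At an unadjusted p under 0.05 there were 4 (15.4%, against 15.0% of all genes), with Cacna2d1 and Scn2a lower (7.69%, against 6.04%) and Cacna1b and Cacna1c higher (7.69%, against 8.93%), which is close to the background. The median log2 difference of the 26 was 0.13, against -0.02 over all genes, and 9 means were below the control (34.6%, against 53.5%). Without a single mouse the 4 became between 1 (without exposed mouse 2 or 3) and 6 (without control 1), the lower ones between 0 (without control 2 or 4 or exposed mouse 2 or 3) and 5 (without control 1), and the higher ones between 1 (without control 1 or exposed mouse 1, 2 or 3) and 3 (without control 2 or exposed mouse 4). Without control 4 there were 2 in all, and without exposed mouse 4 there was 1 lower. Scn4b was at 654 to 752 in the controls and 667 to 819 in the exposed mice, with a log2 difference of 0.07 and an adjusted p of 0.796.

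**Figure D3:**
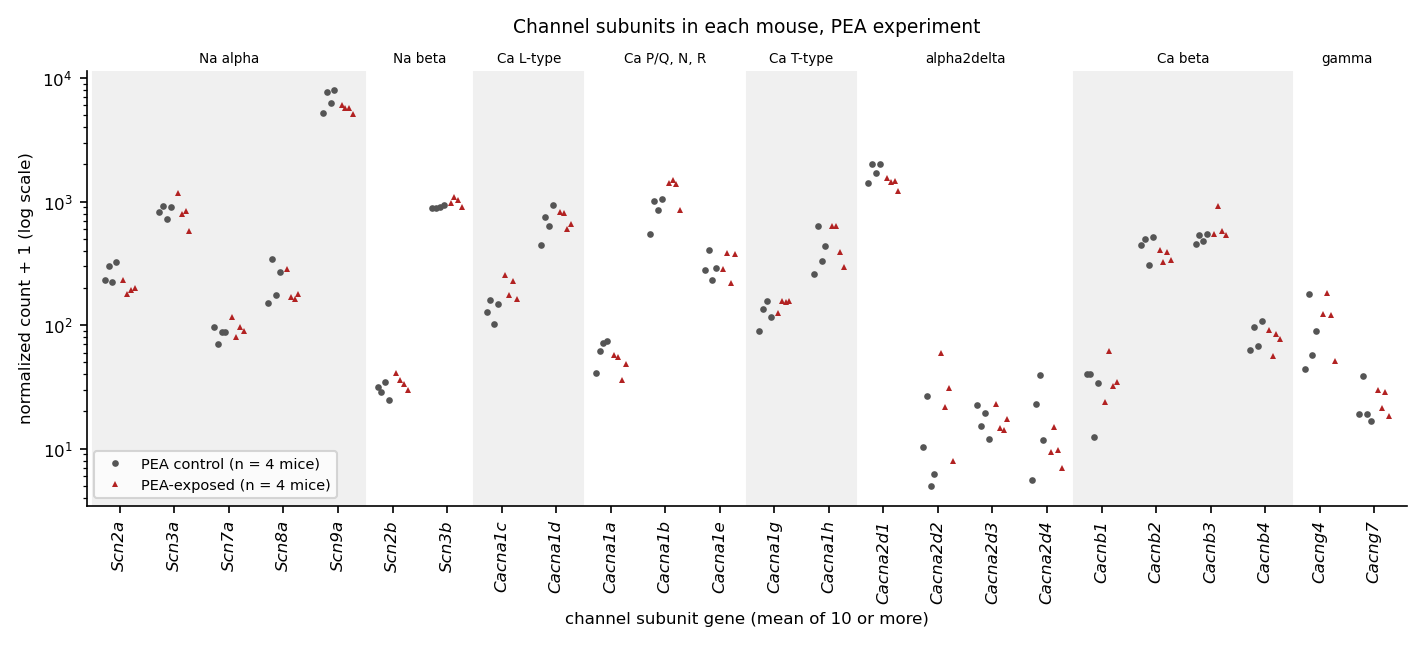
Normalized counts plus 1, on a log scale, of 24 of the 26 tested subunit genes in each mouse of the PEA experiment (grey circles, 4 controls; red triangles, 4 exposed mice), grouped by class. Scn9a tops the plot at 5114 to 7958, Cacna1c is the one gene whose red points all lie above the grey, and the spread within groups is wide for Cacna2d2, Cacna2d4 and Cacng4.

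The L-type pore Cacna1c (Cav1.2) was the one member whose groups did not overlap, with exposed mice above controls (3.85%, against 5.46% of all genes), and in no member were all exposed mice below all controls (0, against 3.86%). Its values were 128, 159.6, 101 and 148 in the controls and 256, 176, 225 and 162 in the exposed mice. The lowest exposed mouse was barely above the highest control, with a log2 difference of 0.60, an SE of 0.19 and an adjusted p of 0.202 and an unadjusted p of 0.0106 that remained under 0.05 in 8 of 8 fits without a mouse. Cacna1b was at 541, 1016, 855 and 1047 in the controls and 1423, 1506, 1396 and 857 in the exposed mice. The fourth exposed mouse lay among the controls, with a log2 difference of 0.59, an SE of 0.23 and an adjusted p of 0.28, and its unadjusted p of 0.0292 was under 0.05 in 4 of 8 such fits. The share of Cacna1b among the calcium pores per kb was 33.5% ± 2.11 in the controls and 40.3% ± 5.05 in the exposed mice (n = 4 each). Cacna1h was at 260.4, 636, 330.0 and 433 in the controls and 632, 636, 389.6 and 297 in the exposed mice. It spread widely within the controls, with a log2 difference of 0.24, an SE of 0.31 and an adjusted p of 0.753. Cacna1f, the retinal pore, was at 0, 1.65, 0.555 and 0.374 in the controls and 0.55, 0, 2.15 and 5.16 in the exposed mice and was not tested. The others of the tested calcium pores, Cacna1a, Cacna1d, Cacna1e and Cacna1g, had log2 differences from -0.32 to 0.28 and adjusted p values of 0.514 or more.

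Scn9a was again the leading sodium pore, at 5236, 7727, 6292 and 7958 in the controls and 6065, 5752, 5748 and 5114 in the exposed mice. The exposed mice lay within the range of the controls except for the lowest, with a log2 difference of -0.25, an SE of 0.14 and an adjusted p of 0.432. Without the low first control the difference was -0.36 with an unadjusted p of 0.00961. That was the only 1 of 8 fits without a mouse under 0.05, with p up to 0.254. Scn3a was at 828, 912, 728 and 895 in the controls and 1162, 799, 843 and 579 in the exposed mice. The exposed mice spread to both sides of the controls, with a log2 difference of -0.03, an SE of 0.18 and an adjusted p of 0.96. Scn2a was at 230.4, 301, 221 and 325 in the controls and 232, 177, 192 and 198 in the exposed mice. Only exposed mouse 1 reached into the range of the controls, with a log2 difference of -0.42, an SE of 0.16 and an adjusted p of 0.261, and the unadjusted p of 0.0237 was under 0.05 in 4 of 8 fits without a mouse. Scn8a was at 149, 341, 174 and 267 in the controls and 286, 168, 161 and 177 in the exposed mice. The spread was wide in the controls, with a log2 difference of -0.20, an SE of 0.28 and an adjusted p of 0.779. Scn9a made up 78.4% ± 1.59 of the sodium pores per kb in the controls and 75.6% ± 2.53 in the exposed mice. Scn3b was at 881, 878, 906 and 945 in the controls and 967, 1078, 1026 and 905 in the exposed mice. All but 1 of the exposed mice were above the controls, with a log2 difference of 0.14, an SE of 0.09 and an adjusted p of 0.509. Scn7a and Scn2b had log2 differences of 0.15 and 0.22 and adjusted p values of 0.722 and 0.670.

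The alpha2delta subunit Cacna2d1, second per kb only to Scn9a in the PEA controls (240.5 against 691), was at 1414, 2021, 1705 and 2013 in the controls and 1549, 1452, 1462 and 1228 in the exposed mice. The lowest control lay below 3 exposed mice, with a log2 difference of -0.32, an SE of 0.13 and an adjusted p of 0.299, and the unadjusted p of 0.0351 was under 0.05 in 2 of 8 fits without a mouse, those without control 1 and without exposed mouse 1. Cacnb3 was at 449, 534, 479 and 543 in the controls and 546, 915, 574 and 533 in the exposed mice. The second exposed mouse stood above all others, with a log2 difference of 0.32, an SE of 0.17 and an adjusted p of 0.405. Cacnb2 was at 447, 501, 305 and 512 in the controls and 401, 324, 388 and 337 in the exposed mice. The groups overlapped here also, with a log2 difference of -0.26, an SE of 0.17 and an adjusted p of 0.501. Without control 3, which was low, the difference was -0.43 with an unadjusted p of 0.00785. That was the only 1 of 8 fits without a mouse under 0.05, with p up to 0.333. Cacng4 was at 43.4, 177, 56.7 and 88.0 in the controls and 121, 181, 119 and 50.7 in the exposed mice, a wide spread in both groups, with a log2 difference of 0.44, an SE of 0.46 and an adjusted p of 0.696. Cacng7 was at 18.2, 38.0, 17.9 and 15.7 in the controls and 28.9, 20.5, 27.7 and 17.3 in the exposed mice. The second control was above every exposed mouse, and exposed mouse 4 was below controls 1 and 3. The groups overlapped, with a log2 difference of 0.13, an SE of 0.33 and an adjusted p of 0.89. Cacng5 was listed at 0, 0, 0 and 1.63 in the controls and at 0, 0.977, 0 and 2.40 in the exposed mice, Cacng2 at 3.11, 3.67, 2.22 and 2.38 and at 4.63, 3.61, 0 and 3.03, and Cacng3 at 0, 0, 0 and 2.50 and at 0, 0.611, 0 and 0. None of these 3 reached the minimum, and Cacng8 was listed at 0 in every mouse. The 5 tested auxiliary subunits not named here had log2 differences from -0.66 to 1.302, the extremes being Cacna2d4, which reached the minimum only through the controls, and Cacna2d2, and adjusted p values of 0.393 or more.

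The order of the subunits per kb was broadly alike in the controls of the 2 experiments, with a Spearman correlation of 0.89 over 39 members and 0.77 over the 26 tested in both. These values share transcript lengths and come from different library types, strains as the methods name them and read lengths, so that no test was made. In the Kir2.1 controls, where libraries were poly-A selected, Cacnb3 (2331 per kb), Scn3b (925), Scn9a (752), Cacna1h (723) and Cacng4 (635) led. In the PEA controls, made from total RNA, Scn9a (691), Cacna2d1 (240.5), Scn3b (217), Cacnb3 (183), Cacna1b (88.8) and Scn3a (87.9) led. Neighbors in these orders were close: Scn9a and Cacna1h differed by less than their SDs of 45.1 and 48.0, as did Cacna1b and Scn3a (23.8 and 8.73). Scn9a made up 52.4% of the sodium pores in the poly-A libraries and 78.4% in the total RNA libraries. Cacna1h made up 54.0% ± 2.84 of the calcium pores in the Kir2.1 controls and 18.8% ± 3.52 in the PEA controls. Cacna1d made up 12.1% ± 1.35 and 27.0% ± 3.07. Cacnb3 made up 87.4% ± 0.868 and 63.5% ± 4.90 of the calcium beta subunits, and Cacna2d1 90.8% ± 1.09 and 96.1% ± 1.28 of the alpha2delta subunits. Ordering by merged exons in place of the longest transcript gave Spearman correlations of 0.99 and 1.00 with the order used here.

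**Figure D4:**
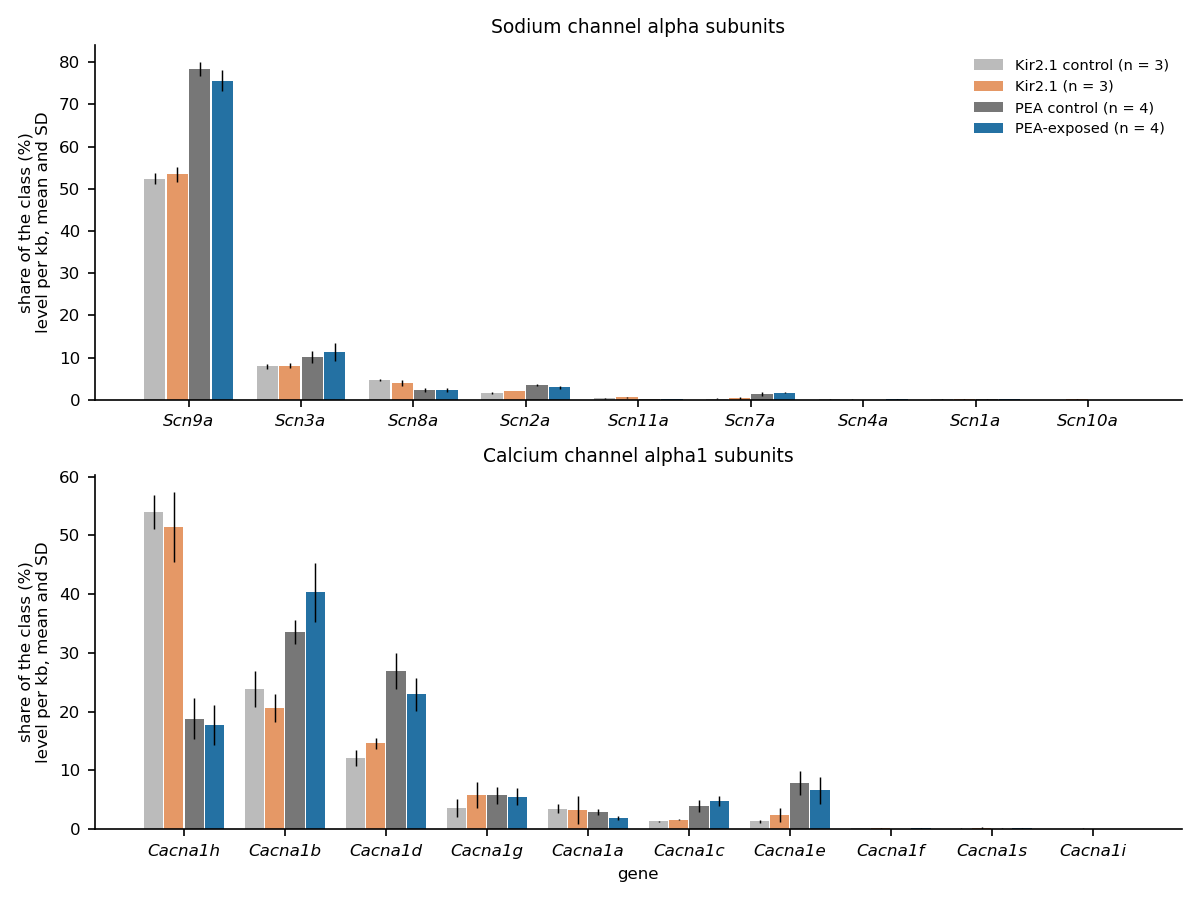
Share in percent of each gene drawn in the summed level per kb of the sodium channel alpha subunits (top) and of the calcium channel alpha1 subunits (bottom), as bars from 0 with the SD over mice, for 3 control and 3 Kir2.1 mice and for 4 control and 4 PEA-exposed mice. Scn9a takes 52.4% and 53.5% in the Kir2.1 experiment and 78.4% and 75.6% in the PEA experiment, and Cacna1h is first among the calcium pores in the former but behind Cacna1b and Cacna1d in the latter.

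Proteins that bind these channels were listed apart. Of 24 partners, all of which were tested in the Kir2.1 experiment, 1 passed the adjusted threshold. Fgf12, an intracellular fibroblast growth factor homolog that binds the tail of sodium channels and delays their inactivation, fell from 2578, 2524 and 2341 in the controls to 1474, 1531 and 1701 in the Kir2.1 mice, by 0.66 on the log2 scale (SE 0.08, adjusted p = 0.0325). Fits without 1 mouse gave -0.72 to -0.62 with adjusted p values of 0.0463 to 0.178, which stayed under the threshold only without Kir2.1 mouse 3 and were 0.153, 0.178, 0.0725, 0.124 and 0.130 without controls 1, 2 and 3 and Kir2.1 mice 1 and 2. Its adjusted p was also above 0.05 without a trend (0.126), with the muscle covariate (0.319), with the vomeronasal receptor covariate (0.134) and with the replicate block (0.141). The same 4 fits gave 0.0705, 0.176, 0.0517 and 0.0747 for Scn4b. Relative to the OSN markers the Fgf12 difference was -0.22 (adjusted p = 0.0674) and that of Scn4b -0.57 (adjusted p = 0.00705). Stac, an adaptor of L-type channels, had values of 322, 294 and 191 against 164, 188 and 198, a log2 difference of -0.52 (adjusted p = 0.426). Rrad, a small GTPase that restrains calcium channels, was at 20.3, 18.7 and 32.0 against 46.9, 36.7 and 35.9, a difference of 0.76 (adjusted p = 0.412). Tmem37, a gamma-like calcium channel subunit, was at 94.6, 128 and 118 against 217, 192 and 156, a difference of 0.72 (adjusted p = 0.221). These 4 were the partners with an unadjusted p under 0.05 (8.33% lower, against 6.2%, and 8.33% higher, against 4.93%), and the groups overlapped for Stac alone. The 20 other partners, among them ankyrins, beta-IV spectrin (Sptbn4), calmodulins and active zone proteins (Rims1 and Rims2), had log2 differences from -0.55 (Nfasc) to 0.38 and adjusted p values of 0.494 or more. Of these, Fgf11 (0.30) and the adaptor Stac2 (0.38) also had every Kir2.1 mouse above every control, which made 4 such partners (16.7%, against 7.26%), and Fgf12 was the 1 partner wholly below (4.17%, against 9.04%). The median over the partners was -0.15. In the PEA experiment 19 partners were tested and none passed, with 1 at an unadjusted p under 0.05 (5.26%, against 15.0%), Sptbn4, whose log2 difference was 0.63 (adjusted p = 0.248) and whose values were 78.4, 141, 99.3 and 123 against 128, 238, 172 and 149. Of the sodium leak channel Nalcn and its subunits, 4 of 5 genes were tested in either experiment, with log2 differences from -0.30 to 0.21 and from -0.37 to -0.08, and none passed.

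**Figure D5:**
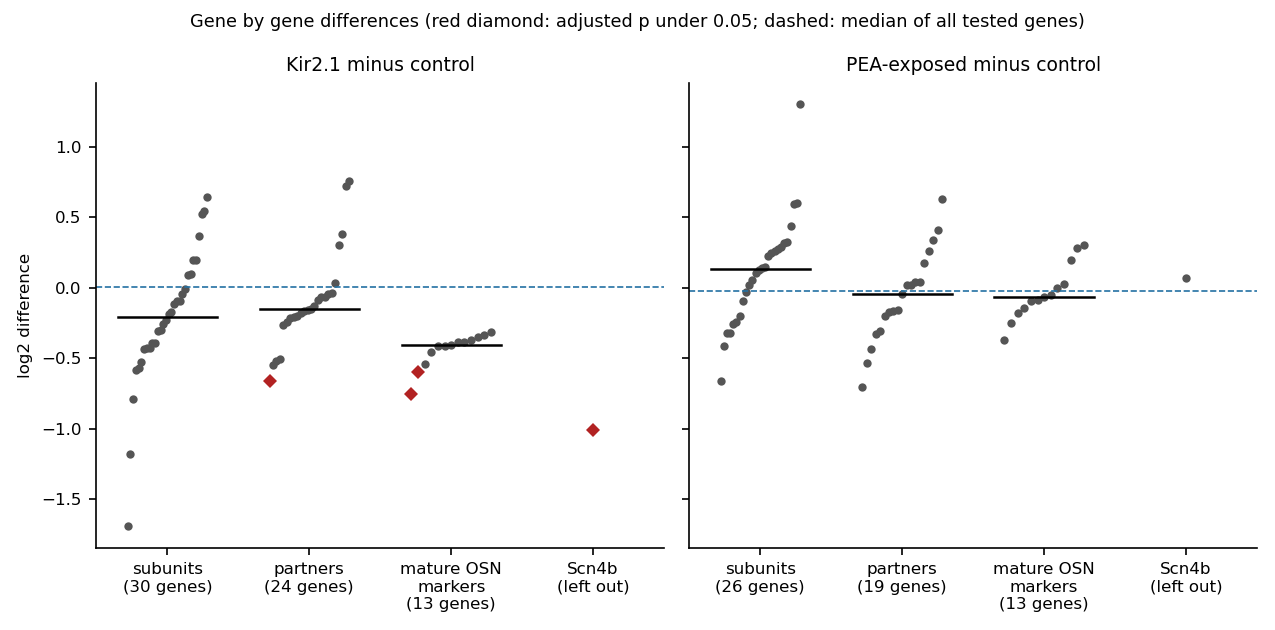
Log2 difference of each tested subunit gene, each partner, each of 13 mature OSN markers and Scn4b, in the Kir2.1 experiment (left) and the PEA experiment (right), with black bars for the median of a list, a dashed line for the median of all tested genes and red diamonds for an adjusted p under 0.05. On the left the median of the subunits is -0.21 and all OSN markers lie below 0. Set against those markers, 7 of the 10 lower subunits change sign, under a scaling that moves the median of all genes from 0.01 to 0.45. On the right the median of the subunits is 0.13.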

How the data were processed

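RNA of 14 olfactory epithelia was sequenced. Per the study's methods, poly-A selection and short unstranded single-end reads were used for Kir2.1, and stranded libraries depleted of ribosomal RNA, with longer single-end reads, for PEA. The authors quantified transcripts with Salmon 1.3.0 against GRCm38 (Ensembl release 100), with a setting for reverse-stranded reads in both experiments, summed them per gene and normalized them with DESeq2 1.30.0. Whether that setting left out part of the unstranded Kir2.1 reads was not tested, a limit on the Kir2.1 levels and on levels set between the experiments. The deposited values are therefore a signal per gene (normalized counts), not whole reads. Of values above 0 and under 200, 5.31 to 23.5% per mouse were whole multiples of a read within 0.01, so reads were not recovered, count tests were not run and the depth is unknown. Sums of the deposited values were 33049111 to 34198478 per mouse in the Kir2.1 experiment and 11476120 to 12467331 in the PEA experiment.

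Genes whose mean reached 10 in an experiment were kept, 1 was added and log2 taken, which understates differences of low genes. The experiments were fitted separately (limma 3.58.1 under R 4.3.3), with variances moderated along a trend with the mean and Benjamini-Hochberg adjustment over all genes tested at a threshold of 0.05. Lists of cell type markers were compared by exact two-sided permutation tests over mice. The script was tested on simulated data. The rest used pandas 2.3.3, numpy 2.4.6, scipy 1.17.1 and matplotlib 3.10.9 under Python 3.11.15, with transcript lengths from GENCODE vM21 on GRCm38. No per-sample column was left unused (0).

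The members, the lists and the rule for naming genes were chosen with earlier results of these data known. Given in full were members with an unadjusted p under 0.05 or groups that did not overlap in either experiment, or among the 6 with the highest control level per kb in either, and 20 others were given by range. Some items are not reported here, but stay in the counts, sums and medians. The partners with an unadjusted p under 0.05 were given by value, and Cacnb4 was singled out after its values were seen. Alternatives were pseudocounts of 0.5 and 5, no minimum and a minimum of 50, no trend, quantile normalization, a replicate block, covariates of muscle markers and of vomeronasal receptors, each mouse left out, and, chosen after seeing the data, levels relative to the mean of the mature OSN markers and a joint fit of both experiments, also relative to those markers.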

Additional observations from a re-analysis of the deposited data

Results flagged for a closer look

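Single mice that stood apart from the others of their group were sought with Dixon's ratio on the log2 scale, which divides the gap of the highest or lowest mouse to its neighbor by the range of the group, among the 26 members tested in the groups of 4 mice (52 groups of values). In all, 5 passed the 95% limit for 4 mice, and chance passes about 1 in 20 groups. Cacna1g was at 125 in exposed mouse 1 against 152 to 157 in the other exposed mice (ratio 0.871). Cacna1b was at 857 in exposed mouse 4 against 1396 to 1506 (0.866), and without that mouse its log2 difference was 0.78 with an unadjusted p of 0.00492. Cacnb3 was at 915 in exposed mouse 2 against 533 to 574 (0.863). In the controls, Cacnb1 was at 11.4 in mouse 3 against 33.2 to 39.4 (0.860), and Cacng7 at 38.0 in mouse 2 against 15.7 to 18.2 (0.834). No mouse held more than 1 of these values. Groups of 3 mice were not tested.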

How the results depend on the processing

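None of the members passed an adjusted p of 0.05 in either experiment under any alternative but one: relative to the mean of the mature OSN markers, 8 members of the Kir2.1 experiment passed, against 54.2% of all genes (10736), and 11 were higher and 1 was lower at an unadjusted p under 0.05, against 60.7% and 0.788% of all genes. The member median was 0.23, against 0.45 over all genes, under a scaling that moves every gene by the difference of those markers. Under it the sign turned in the Kir2.1 experiment for 16 of the 30 tested members, among them Cacna1b (0.048), Cacna1h (0.18), Cacna2d1 (0.27), Cacnb2 (0.015), Cacnb3 (0.21), Cacng4 (0.26), Scn2a (0.40), Scn3a (0.14), Scn3b (0.012) and Scn9a (0.14), and in the PEA experiment for Scn3a (0.0036), with 57 genes passing there. The 70 genes of the Kir2.1 experiment became 20 without a trend, 8 with the muscle covariate, 22 with the vomeronasal receptor covariate and 16 to 44 when each mouse was left out. The members at an unadjusted p under 0.05 became 7 with the muscle covariate and 8 to 12 without a mouse, the higher ones 0 with the muscle covariate, 2 with no minimum and 1 to 2 without a mouse, and the lower ones 6 to 11. The member median was -0.25 with the vomeronasal receptor covariate and -0.25 to -0.18 without a mouse. The 31 genes of the PEA experiment became 52 with no minimum, 19 with the vomeronasal receptor covariate and 19 to 41 without a mouse. Its 4 members became 2 without a trend (1 lower, 1 higher) and 1 to 6 without a mouse (0 to 5 lower, 1 to 3 higher), with 1 higher under the muscle covariate and 1 lower under quantile normalization. Small differences of the PEA experiment that turned sign were Scn3a (0.0033 under quantile normalization, 0.095 with the vomeronasal receptor covariate, and -0.20 to 0.14 without a mouse), Scn8a (-0.39 to 0.011 without a mouse) and Cacng7 (-0.029 with the muscle covariate and -0.0065 to 0.40 without a mouse). The causes were not tested.

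Correlations between the deviations of mice that share a replicate number were -0.06, -0.01 and 0.16 with Kir2.1, and 0.13, -0.02, -0.05 and 0.10 with PEA. These were not compared with mice of different numbers, so whether the numbers pair the mice was not tested. With the replicate block, 9 genes passed in the Kir2.1 experiment and 12 members had an unadjusted p under 0.05 (11 lower), and in the PEA experiment 23 genes passed and 3 members had such a p, of which 1 was lower. With 3 or 4 mice a group and unknown depth, the differences of Cacna1f and Cacng2 (Kir2.1) and of Cacna2d2 (PEA) had 95% intervals of -1.83 to 0.25, -2.53 to 0.17 and -0.19 to 2.79 on the log2 scale.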

Other observations

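Whether a subunit differed by another amount in one experiment than in the other was asked in a joint fit of both experiments (limma on the 16705 genes tested in both, of which 13.2% had an unadjusted p under 0.05 and 74 passed adjustment), added after the data were seen. The experiments differ in manipulation, library type, read length and the strain named in the methods, and these cannot be told apart. Of the 26 members, 4 had an unadjusted p under 0.05 and 1 passed. Relative to the mature OSN markers, 2 had such a p. The share of all genes under that scaling is not given here, so the counts cannot be compared. Scn3b, the beta3 subunit of sodium channels, had a log2 difference of -0.43 in the Kir2.1 experiment and 0.14 in the PEA experiment, so that the second exceeded the first by 0.57 (SE 0.11, adjusted p = 0.0449). Leaving out each of the 14 mice gave 0.53 to 0.61 with adjusted p values of 0.0324 to 0.141, and 11 of the 14 fits no longer passed, the exceptions being those without Kir2.1 control 3, PEA control 4 or exposed mouse 4. The adjusted p was 0.0786 without a trend. Relative to the mature OSN markers the 2 differences were 0.01 and 0.17, apart by 0.16 (SE 0.14, adjusted p = 0.412). Cacna1b, the N-type pore, had -0.39 and 0.59, apart by 0.99 (SE 0.33, adjusted p = 0.223), and by 0.58 relative to those markers. Cacnb3 had -0.23 and 0.32, apart by 0.55 (SE 0.22, adjusted p = 0.306), and by 0.14 relative to the markers. Scn9a had -0.30 and -0.25, and its 2 differences were 0.06 apart with an SE of 0.18.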
